A study of Danio rerio with 24 samples.

Results

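The ephrin, semaphorin, Slit and netrin guidance genes of the zebrafish embryo were followed through 8 h of exposure to TP-0903, an inhibitor of several kinases. Members were taken by gene symbol: Eph receptors, ephrins, semaphorins, plexins, neuropilins 1 and 2, Robo receptors, Slits, netrins, the Unc5 receptors and Dcc. The rule took 84 Ensembl genes with 81 different symbols out of 19372 genes listed in any of the 3 tables. They comprised 13 Eph receptors, 12 ephrins, 27 semaphorins, 14 plexins and neuropilins, 5 Robo receptors, 4 Slits and 8 netrins and Unc5 receptors. The remaining member, unc50, matched by its letters alone and is not a netrin receptor, so it is listed apart. The symbols plxna1, plxnb2a and robo2 each stood for 2 identifiers, and reads of the pairs may have been split between them. The tables of 1 h and 4 h held 79 of the members, and 5 (efna3a, epha6, sema4aa, unc5a and unc5da) stood in the 8 h table alone. Dcc, plxnd1 and nrp2a were not analysed here.

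Guidance ligands and receptors tell moving cells and growing axons where to go. Ephrins are held on the cell surface, and their contact with Eph receptor tyrosine kinases keeps neighbouring cell groups apart, as in the hindbrain segments, the somites and the streams of migrating neural crest. Semaphorins act through plexins, and most of the secreted class 3 members need a neuropilin as co-receptor. Slits repel cells and axons through Robo receptors, while netrins attract or repel them through Dcc and Unc5 receptors.

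Each library was made from RNA of 35 pooled whole embryos carrying the Tg(snail1b:GFP) reporter, a transgene shared by all groups. Embryos received TP-0903 or its solvent DMSO from 13 hpf (hours after fertilization, 8 somites). They were collected after 1 h (14 hpf, 10 somites), 4 h (17 hpf, 16 somites) or 8 h (19.5 hpf, 21 somites), with 4 biological replicates in each of the 6 groups. The stage of 19.5 hpf given for 8 h is earlier than 8 h after 13 hpf, and the sources used here do not say why. The dose of TP-0903 in these samples is not given in the sources used here, and nothing says which replicates came from separate clutches, so p-values measure the spread between these libraries. Libraries held 3879310 to 10582470 counts in genes. At 1 h the median was 4235556 counts in DMSO and 8561006 in TP-0903, so depth differed with treatment there. The medians were 8978543 and 6916578 at 4 h and 8944580 and 8228991 at 8 h. Because whole embryos were sampled, fewer cells of a type and less RNA per cell cannot be told apart. At 1 h, DMSO replicate 4 and TP-0903 replicate 3 lay furthest along the first component of the spread within treatments, at 69.4 and 57.9. This component took 70.0% of that variance. TP-0903 replicate 1 lay between, at 20.8, and the remaining libraries lay at -39.5 to -15.9. At 4 h, the counts of TP-0903 replicate 2 differed most from those of replicates 3 and 4. The chi-square per gene was 21.3 and 23.2, beside 4.43 between the latter. Replicate 2 differed from replicate 1 by 9.25, near the 9.28 between replicates 1 and 4. Along the first component at 4 h, replicates 1 and 2 lay opposite 3 and 4 in both treatments. The 8 h libraries were listed in a separate table with other gene models for some genes, so stage and table cannot be told apart between 4 h and 8 h. For 9 of 79 members, the length implied by the ratio of count to FPKM differed by more than 5% between the 4 h and 8 h tables (plxnb1b, nrp1a, plxna1 ENSDARG00000061275, epha4l, epha7, ephb2a, ntn1a, efna3b and epha3). Over all genes, 9.23% differed by that much.

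The control embryos already expressed most of the guidance members that were listed, and genes that were not listed could not be counted. In FPKM, a value per kilobase of gene model that allows genes to be compared, the 1 h DMSO libraries were led by epha4a, the receptor of rhombomeres 3 and 5, at 62.8 ± 11.1 FPKM (mean ± SD, n = 4). The transmembrane ligand efnb2a followed at 60.7 ± 12.2 FPKM, the neuropilin nrp2b at 58.99 ± 5.25 FPKM and the semaphorin receptor plxna3 at 53.1 ± 5.32 FPKM. The first of these 4 genes differed from the next by less than their SDs, as did efnb2a from nrp2b, while nrp2b and plxna3 differed by a little more than the SD of either. At 8 h the order was led by sema6dl, a transmembrane semaphorin (56.5 ± 6.24 FPKM), efnb1 (45.95 ± 1.24 FPKM), efnb2a (45.2 ± 2.11 FPKM) and robo3, the Robo receptor of commissural neurons (40.8 ± 2.47 FPKM). The first of these stood above efnb1 by more than the SD of either, efnb1 and efnb2a differed by less than their SDs, and robo3 lay below efnb2a by more than the SD of either. The median member had 9.54 FPKM in DMSO at 1 h, 10.1 FPKM at 4 h and 10.6 FPKM at 8 h. At these times 8, 7 and 10 members had a mean under 1 FPKM. These figures cover 79 members at 1 h and 4 h and 84 at 8 h. The 5 members listed at 8 h alone all had a mean under 1 FPKM, so these counts do not compare like with like.

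Between 1 h and 4 h of DMSO, 24 of 79 tested members changed, 15 upward and 9 downward (edgeR's quasi-likelihood test, Benjamini-Hochberg adjusted p under 0.05), beside 19.1% of all genes tested. Of the semaphorins, 8 rose and 2 fell. The class 3 semaphorin sema3c had 0.7499, 1.001, 0.442 and 1.59 CPM (counts per library, scaled to a common library size by TMM within each time) in the 1 h libraries of replicates 1 to 4 and 5.23, 4.43, 4.21 and 4.48 CPM in the 4 h libraries. The 4 h values all lay above the 1 h values (log2 fold change 2.31 ± 0.29 (SE), edgeR adjusted p = 7.3e-04). The Eph receptor epha3, which binds ephrin-A ligands, rose by 2.00 ± 0.25 on the log2 scale (edgeR adjusted p = 7.2e-04), and ephb2b, a receptor of ephrin-B ligands, by 1.58 ± 0.26 (edgeR adjusted p = 0.00276). The receptor robo4 rose by 0.93 ± 0.19 and plxna4, a receptor for class 3 semaphorins, by 1.00 ± 0.17. The largest decreases among the called members were in efnb2b (-0.88 ± 0.26), sema6d (-0.63 ± 0.19) and nrp2b (-0.59 ± 0.09). Without DMSO 1 h replicate 4, 43 members were called, 20 higher and 23 lower, and without DMSO 4 h replicate 4, 15 were. The fit without DMSO 1 h replicate 4 kept all 9 lower calls. Each other fit that left out a library kept only 3 or 4 of the 9, while 12 to 15 of the 15 higher calls were kept. With the replicate number as a block, 3 lower and 14 higher calls were kept.

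Between 4 h and 8 h of DMSO, 51 of 79 members differed (40 higher, 11 lower) beside 51.9% of all genes, a comparison across the separate tables. Among the 70 tested members whose gene model kept its length, 33 were higher and 10 lower at 8 h, beside 26.6% and 24.7% of the genes with the same length in both tables. Of those called, 14 semaphorins were higher and 3 lower, and 8 plexins and neuropilins were higher and 1 lower. Sema3c rose again, to 16.1, 15.2, 20.1 and 17.1 CPM at 8 h, none of which overlapped the 4 h values (1.90 ± 0.14, edgeR adjusted p = 7.4e-08). The plexin plxnc1 was higher by 1.55 ± 0.32, sema5a by 1.14 ± 0.21, sema5ba by 1.12 ± 0.11 and robo2 (ENSDARG00000014891), the Slit receptor of retinal axons, by 1.099 ± 0.11. The ligand efnb2b fell further, from 1.51, 2.68, 2.25 and 2.13 CPM to 0.132, 0.576, 1.103 and 0.546 CPM, and sema3ab differed by -0.77 ± 0.09. Unc50, which in the worm acts in the transport of receptors to the cell surface, fell by 0.82 ± 0.16 on the log2 scale. The differences of epha3 (1.98) and ephb2a (1.86) were the first and the third largest increases, but their gene models were 251% and 117% longer in the 8 h table, and gene model and stage cannot be told apart for them.

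**Figure D1:**
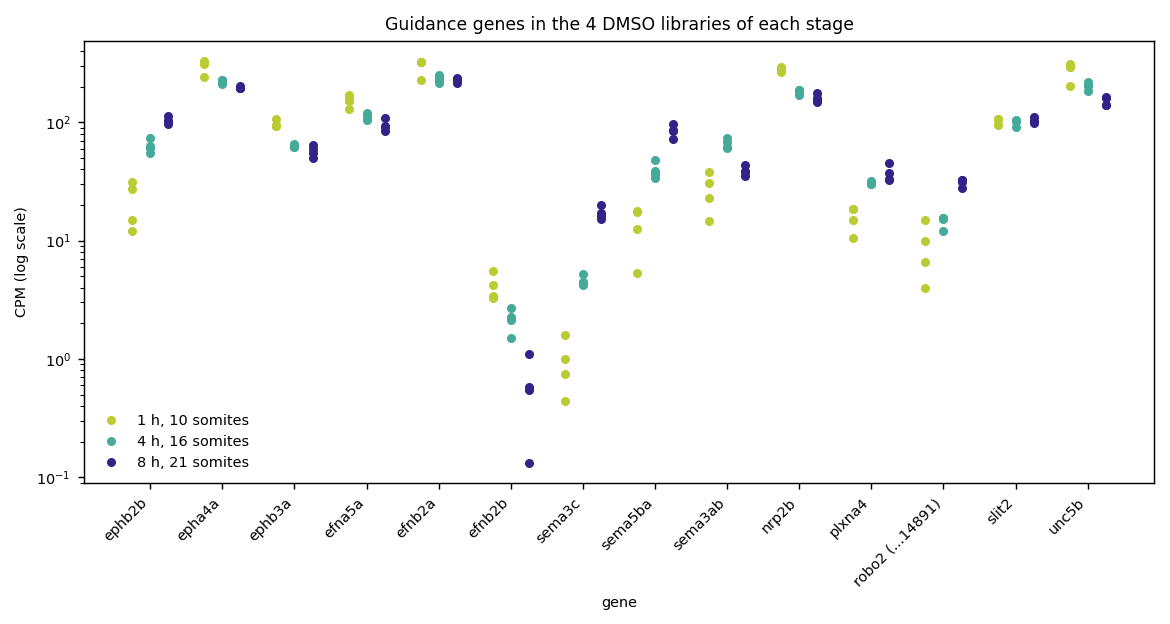
CPM on a log axis in the 4 DMSO libraries of each stage for 14 guidance genes whose gene model kept its length between the tables. Sema3c and ephb2b climb at each stage while efnb2b declines.

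After 1 h of TP-0903 no guidance gene passed the test. Sema3c and ephb2a were too low to be tested at this time. Of 77 members tested, 0 passed an adjusted p of 0.05 in edgeR's quasi-likelihood test, beside 0% of all 15530 genes, and 0 had an unadjusted p under 0.05, beside 1.38% of all genes. DESeq2 called 0 members, beside 0.0708% of all genes. The libraries did not overlap between treatments for 3 members (1.49% of all genes): slit2 lay above DMSO in TP-0903, and epha2a and ephb3a lay below. The median log2 fold change of members was -0.04, and that of all genes was 0.01. Without DMSO replicate 4 and TP-0903 replicate 3, which lay furthest along the first component, 0 members were called. TP-0903 replicate 1, which lay between these and the rest, stayed in that fit.

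After 4 h of TP-0903 again 0 of 78 members passed the adjusted p in edgeR, with 0.74% of all genes called. Of the listed members epha8 was too low to be tested, and the smallest member value was 0.15 (plxna4). DESeq2 called plxna4 alone among the members, with an adjusted p of 0.0338, beside 1.34% of all genes. At an unadjusted p under 0.05, 16 members stood out in edgeR, of which 13 were lower, beside 9.43% of all genes in either direction and 4.24% lower. Plxna4 had 30.2, 30.7, 32.2 and 29.9 CPM in DMSO and 19.3, 14.1, 23.8 and 24.3 CPM in TP-0903, and these groups did not overlap (log2 fold change -0.59 ± 0.15). Without TP-0903 replicate 2, 0 of 79 members were called (0.677% of all genes) and 19 had an unadjusted p under 0.05, of which 12 were lower, beside 7.29% of all genes in either direction and 3.33% lower.

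None of the Eph receptors passed the adjusted test at 4 h in edgeR. Of 11 tested, 10 had a negative log2 fold change, beside 49.8% of all genes and 72.4% of the genes at least as long as the median member (3882 bases), and 5 of these had an unadjusted p under 0.05. Without TP-0903 replicate 2, 10 of 12 were negative and 5 had an unadjusted p under 0.05. That library was the lowest of the TP-0903 libraries for 52 of 78 members, and for 30% of all genes. The receptor epha4b had 59.2, 77.2, 59.7 and 63.6 CPM in DMSO and 43.95, 36.97, 50.5 and 59.03 CPM in TP-0903. Ephb3a, a receptor of ephrin-B ligands, had 61.4, 61.5, 65.2 and 64.9 CPM in DMSO and 52.5, 42.7, 48.8 and 55.4 CPM in TP-0903. In both genes all 4 TP-0903 libraries lay below all DMSO libraries, although neither passed the adjusted threshold (edgeR adjusted p = 0.31 and 0.18). Epha7 and epha2a did not overlap either, at 60.0 to 64.8 CPM in DMSO against 44.3 to 58.6 CPM in TP-0903 and at 169 to 183 against 144 to 159 CPM. Epha4a overlapped, with 212, 224, 226 and 229 CPM in DMSO and 197, 103, 240.0 and 203 CPM in TP-0903, where replicate 2 was the lowest library.

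In all, 11 members had groups that did not overlap at 4 h, 10 of them lower in TP-0903, beside 6.39% of all genes in either direction and 2.88% lower. The others that lay below were the ligands efna2 and efnb1, plxna4, robo4, sema3ab and sema4ba, and sema3gb alone lay above. Without TP-0903 replicate 2, 15 members did not overlap and again 10 lay below, beside 8.66% of all genes in either direction and 3.94% lower. The receptor robo4 had 95.1, 104, 101 and 99.03 CPM in DMSO and 75.2, 57.5, 86.4 and 87.6 CPM in TP-0903. Sema3gb, a class 3 semaphorin, had 43.7, 45.6, 38.4 and 39.6 CPM in DMSO and 65.7, 47.7, 51.2 and 53.7 CPM in TP-0903. Across all genes at 4 h, longer genes had lower log2 fold changes (Spearman's rho -0.27, a description across genes, which are not replicates). Of the 3282 genes at least as long as the median member, 4.97% lay below DMSO without overlap and 7.65% were lower at an unadjusted p under 0.05. Among the members themselves rho was 0.03. The part of gene length in the members' values was not tested.

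After 8 h of TP-0903 the guidance genes moved in both directions. Of 82 tested members, 18 were higher and 16 lower than in DMSO (edgeR's quasi-likelihood test, Benjamini-Hochberg adjusted p under 0.05), and 48 were not called. The libraries of the treatments did not overlap for 35 members, 17 above and 18 below DMSO, beside 28.9% of all genes. The share of all 17478 genes called was 28.9%, with 15.4% higher and 13.5% lower. DESeq2 called 30 of the members, beside 26.3% of all genes. The median log2 fold change was 0.00 in the members and -0.01 over all genes. Calls fell on 7 of 11 tested ephrins, 5 of 13 Eph receptors, 12 of 27 semaphorins, 4 of 14 plexins and neuropilins, 5 of 5 Robo receptors, 0 of 4 Slits and 1 of 7 netrins and Unc5 receptors. Leaving out 1 library at a time, 23 of the 34 were called in every fit, and the others are named as such below. With all 24 libraries in 1 fit, 16 of the 32 that could enter it were called, 7 higher and 9 lower, beside 9.26% of all genes. That fit called efna5a, robo2 ENSDARG00000014891, sema3c, sema3gb, sema5a, sema5bb and sema6e higher and efna1b, efnb1, efnb2a, epha2a, epha4l, robo3, sema3d, sema3fb and sema3h lower. The calls of efna3b, efna5b, ephb2b, plxna4, plxnb1a, robo1, robo2 ENSDARG00000078366, sema5ba and sema7a above DMSO, and of epha7, nrp1b, ntn1a, plxnb2a (ENSDARG00000094799), robo4, sema3ab and sema6bb below it, were not made there, and efna3a and epha6, listed at 8 h alone, could not enter.

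**Figure D2:**
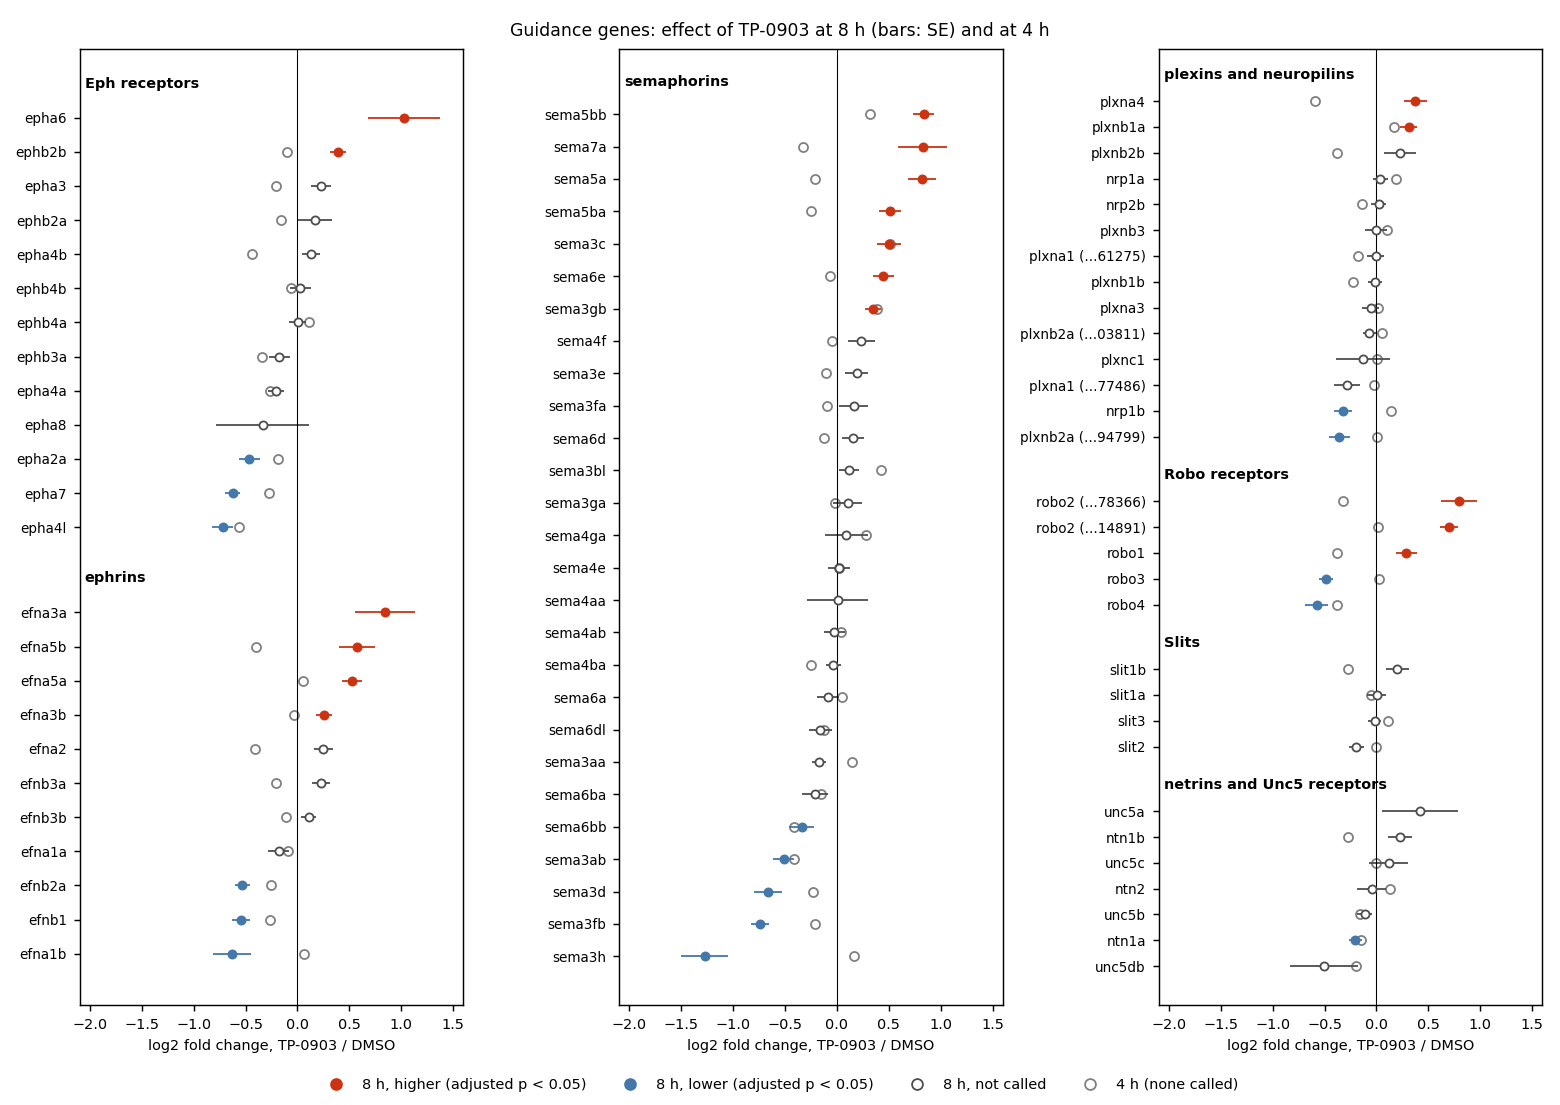
Log2 fold change (TP-0903 over DMSO) of each tested member at 8 h, with its SE, by family, and at 4 h as open grey circles without error bars. Filled red points (18) and blue points (16) passed the adjusted threshold at 8 h, and 0 members passed it at 4 h.

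Over all genes at 8 h, longer genes had higher log2 fold changes (rho 0.22, across genes), while among the members themselves rho was 0.03. Of the 3669 genes at least as long as the median member, 29.5% were higher and 9.05% lower. With the trend of each library with gene length removed, an alternative added after the data were seen, 34 members were again called, but 10 were higher and 24 lower, beside 13.7% and 13.8% of all genes. All 16 lower calls and 10 higher calls were kept: efna5a, efna5b, both robo2 genes, sema3c, sema3gb, sema5a, sema5ba, sema5bb and sema6e. The higher calls lost were efna3a, efna3b, epha6, ephb2b, plxna4, plxnb1a, robo1 and sema7a, and the 8 lower calls gained were epha4a, plxna3, plxnb1b, plxnb2a (ENSDARG00000003811), sema3aa, sema4ba, slit2 and unc5b. The part of gene length itself in these values was not tested.

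Of 7 ephrin-A ligands tested at 8 h, 4 rose and 1 fell, and of 4 ephrin-B ligands tested, 0 rose and 2 fell. Beside them, 15.4% of all genes were higher and 13.5% lower. The GPI-anchored efna5a had 85.1, 93.4, 90.9 and 109 CPM in DMSO and 136, 153, 139 and 116 CPM in TP-0903. All TP-0903 libraries lay above all DMSO libraries (log2 fold change 0.52 ± 0.09, edgeR adjusted p = 9.7e-04). Its paralog efna5b was lower in abundance, at 4.08, 3.68, 3.75 and 3.601 CPM in DMSO and 6.54, 6.21, 4.69 and 5.06 CPM in TP-0903, and rose by 0.57 ± 0.17 (edgeR adjusted p = 0.0229, called in 5 of 8 fits that left out a library). Efna3b (0.26 ± 0.08) and the weakly expressed efna3a (0.84 ± 0.29) were also called higher, each in 2 of 8 such fits. Both of these calls were lost when the length trend was removed. Of the 4 higher calls, the fit over all 24 libraries, which efna3a could not enter, made that of efna5a alone. In efna3a, TP-0903 replicate 2 lay among the DMSO libraries, at 2.08, 1.22, 2.04 and 2.05 CPM for replicates 1 to 4. Efna1b was the 1 ephrin-A ligand called lower, from 21.8, 25.9, 26.4 and 37.9 CPM to 21.7, 20.2, 18.5 and 12.3 CPM (log2 fold change -0.63 ± 0.18, edgeR adjusted p = 0.0169, called in 7 of 8 fits that left out a library). Efna1a and efna2 were not called, although the efna2 libraries did not overlap (21.5 to 23.9 CPM in DMSO, 24.5 to 28.1 CPM in TP-0903, edgeR adjusted p = 0.0539).

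The transmembrane ligand efnb2a, which marks arteries and hindbrain and somite boundaries, had 216, 231, 238 and 228 CPM in DMSO. In TP-0903 it had 163, 174, 154 and 142 CPM, all below the DMSO libraries (log2 fold change -0.53 ± 0.07, edgeR adjusted p = 1.2e-04). Efnb1 fell from 53.4, 55.1, 53.5 and 52.3 CPM to 34.4, 39.3, 40.4 and 32.3 CPM, again without overlap (log2 fold change -0.55 ± 0.09, edgeR adjusted p = 3.3e-04). Both calls held in every fit that left out a library. Efnb3a and efnb3b overlapped between treatments, at 75.6 to 83.2 CPM in DMSO and 79.1 to 88.9 CPM in TP-0903 for efnb3b. Efnb2b was too low to be tested, with 0.132, 0.576, 1.103 and 0.546 CPM in DMSO and 0.892, 0.665, 1.32 and 1.21 CPM in TP-0903.

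The Eph receptors called at 8 h were 3 lower and 2 higher of 13 tested, beside 13.5% of all genes lower and 15.4% higher. Epha7 had 136, 146, 135 and 139 CPM in DMSO and 87.5, 99.04, 91.3 and 83.2 CPM in TP-0903. No TP-0903 library reached the lowest DMSO library (log2 fold change -0.62 ± 0.07, edgeR adjusted p = 2.2e-05). The receptor epha4l fell from 36.97, 42.02, 40.4 and 38.7 CPM to 26.2, 25.8, 24.8 and 19.2 CPM (log2 fold change -0.72 ± 0.10, edgeR adjusted p = 1.6e-04), and epha2a from 124, 148, 145 and 177 CPM to 108, 121, 105 and 96.9 CPM (log2 fold change -0.46 ± 0.10, edgeR adjusted p = 0.00359), both without overlap. In the other direction, ephb2b rose from 95.9, 112, 103 and 103 CPM to 142, 151, 128 and 124 CPM (log2 fold change 0.39 ± 0.08, edgeR adjusted p = 0.00219). Epha6 had 1.05, 0.345, 1.87 and 1.2 CPM in DMSO and 2.23, 2.44, 1.92 and 2.65 CPM in TP-0903 (log2 fold change 1.03 ± 0.35, edgeR adjusted p = 0.0387), and was called in 1 of 8 fits that left out a library. The hindbrain segment receptor epha4a was not called. Its libraries had 194, 196, 195 and 202 CPM in DMSO and 163, 196, 175 and 148 CPM in TP-0903, and replicate 2 of TP-0903 lay within the DMSO range (edgeR adjusted p = 0.0685). With the length trend removed its adjusted p was 0.0065. Of 5 hindbrain genes listed here for rhombomeres 3 and 5, 4 fell and 1 rose at 8 h. Expression of hoxb3a, mafba and hoxa2b is not confined to those segments, so the sums below are not a measure of them alone. The gene that rose was hoxb3a, from a mean of 131 to 265 CPM, and with it the summed level of the list was 197 to 235 CPM in DMSO and 252 to 345 CPM in TP-0903. The other 4 (egr2b, hoxa2b, mafba and egr2a) summed to 75.1 to 94.7 CPM in DMSO and 31.3 to 37.8 CPM in TP-0903. Among them egr2b, which in the mouse activates Epha4, went from a mean of 15.4 to 0.81 CPM. The part of these segments' cells in the Eph receptor values was not tested. The venous receptor ephb4a did not differ beyond its spread, at 107 to 129 CPM in DMSO and 109 to 128 CPM in TP-0903.

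Of 11 secreted class 3 semaphorins, 4 fell and 2 rose, beside 13.5% of all genes lower and 15.4% higher. Sema3fb had 56.8, 58.7, 64.9 and 68.96 CPM in DMSO and 35.1, 37.9, 38.6 and 37.4 CPM in TP-0903. The highest TP-0903 library was far under the lowest DMSO library (log2 fold change -0.74 ± 0.08, edgeR adjusted p = 1.7e-05). Sema3d, which guides migrating neural crest in the zebrafish, fell from 17.4, 20.7, 25.03 and 21.9 CPM to 13.4, 11.8, 12.5 and 16.2 CPM (log2 fold change -0.67 ± 0.13, edgeR adjusted p = 0.0021). Sema3ab fell from 35.0, 38.8, 43.8 and 37.97 CPM to 27.96, 25.3, 25.02 and 30.9 CPM (log2 fold change -0.51 ± 0.10, edgeR adjusted p = 0.00151). The weakly expressed sema3h fell most of all called members, from 3.55, 5.07, 4.63 and 3.601 CPM to 2.08, 1.44, 1.92 and 1.57 CPM (log2 fold change -1.27 ± 0.23, edgeR adjusted p = 8.3e-04). None of these 4 genes overlapped between treatments, and each was called in every fit that left out a library. Sema3c went the other way, from 16.1, 15.2, 20.1 and 17.1 CPM to 25.9, 25.5, 24.7 and 21.1 CPM (log2 fold change 0.50 ± 0.11, edgeR adjusted p = 0.00434), as did sema3gb, with 48.5 to 55.1 CPM in DMSO and 59.5 to 70.1 CPM in TP-0903 (0.35 ± 0.08). Sema3aa lay below DMSO without overlap but was not called (129 to 141 and 114 to 123 CPM, edgeR adjusted p = 0.0595). When the length trend was removed, sema3aa was called lower. Sema3fa, the paralog of sema3fb, overlapped at 25.9 to 28.4 CPM in DMSO and 23.98 to 37.9 CPM in TP-0903.

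All 3 class 5 semaphorins, transmembrane proteins with thrombospondin repeats, rose at 8 h. Sema5a had 8.42, 13.2, 12.8 and 13.6 CPM in DMSO and 22.6, 20.3, 21.1 and 21.6 CPM in TP-0903. The TP-0903 libraries all lay above DMSO, whose replicate 1 was the lowest (log2 fold change 0.82 ± 0.13, edgeR adjusted p = 4.8e-04). Sema5bb rose from 21.1, 21.2, 18.7 and 20.7 CPM to 38.1, 41.5, 31.9 and 34.5 CPM (log2 fold change 0.84 ± 0.10, edgeR adjusted p = 3.3e-05), and sema5ba from 72.9, 97.6, 84.6 and 85.3 CPM to 136, 135, 116 and 98.7 CPM (log2 fold change 0.51 ± 0.11, edgeR adjusted p = 0.00295), each without overlap and in every fit that left out a library. Of the class 6 members, also transmembrane, sema6e rose (0.45 ± 0.10, edgeR adjusted p = 0.00447) and sema6bb fell (-0.34 ± 0.12, edgeR adjusted p = 0.0467, called in 3 of 8 such fits). The most abundant semaphorin per length, sema6dl, was not called, with 188 to 239 CPM in DMSO and 151 to 232 CPM in TP-0903. Sema7a, a GPI-anchored semaphorin at 1.05 to 1.54 CPM in DMSO, rose by 0.83 ± 0.24 (edgeR adjusted p = 0.0188, called in 6 of 8 such fits). The class 4 semaphorins, 6 genes, gave 0 calls in edgeR, 0 in DESeq2 and 0 at an unadjusted p under 0.05 in edgeR. Of these genes, sema4ba was called lower when the length trend was removed.

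Of the 14 receptors for semaphorins, the plexins and neuropilins, 4 (28.6%) were called, near the 28.9% of all genes. The neuropilins nrp1a and nrp2b overlapped between treatments, at 231 to 256 CPM in DMSO against 224 to 269 CPM in TP-0903 and at 149 to 177 CPM against 156 to 172 CPM. Nrp1b, like nrp1a a co-receptor for class 3 semaphorins and VEGF, fell from 50.3, 52.04, 55.9 and 57.3 CPM to 42.5, 48.6, 39.9 and 41.2 CPM (log2 fold change -0.32 ± 0.08, edgeR adjusted p = 0.0109). Plxnb1a, whose mammalian counterpart binds a class 4 semaphorin, rose from 98.9, 85.4, 93.8 and 87.1 CPM to 117, 125, 108 and 103 CPM (log2 fold change 0.31 ± 0.08, edgeR adjusted p = 0.0095). Both pairs of groups were free of overlap. Plxna4 had 32.6, 33.2, 37.3 and 45.5 CPM in DMSO and 52.7, 47.1, 50.4 and 42.8 CPM in TP-0903. DMSO replicate 4 lay within the TP-0903 range (log2 fold change 0.37 ± 0.11, edgeR adjusted p = 0.02, called in 4 of 8 fits that left out a library). The gene listed as plxnb2a under ENSDARG00000094799, which a later gene table names si:dkey-183c2.5, fell by 0.36 ± 0.10 on the log2 scale (edgeR adjusted p = 0.0178, called in 6 of 8 such fits). Plxna3, plxnb1b and the other plxnb2a gene had 8 h ranges that overlapped, and each was called lower when the length trend was removed.

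All 5 Robo genes, 2 of them under the symbol robo2, were called at 8 h, in opposite directions, beside 28.9% of all genes. The fit over all 24 libraries called only robo2 ENSDARG00000014891 and robo3 of them. The call of robo1 was lost when the length trend was removed. The robo2 gene ENSDARG00000014891 had 28.03, 32.2, 31.4 and 32.8 CPM in DMSO and 56.8, 48.9, 48.1 and 49.4 CPM in TP-0903. The groups were well apart (log2 fold change 0.70 ± 0.09, edgeR adjusted p = 4.2e-05). The other gene of that symbol, ENSDARG00000078366, rose from 4.47, 5.296, 5.18 and 7.53 CPM to 11.6, 8.98, 8.901 and 10.0 CPM (log2 fold change 0.80 ± 0.17, edgeR adjusted p = 0.0033). Robo1, which also binds Slits, had 55.8, 71.7, 78.3 and 73.8 CPM in DMSO and 86.4, 96.5, 81.3 and 77.7 CPM in TP-0903. Here TP-0903 replicate 4 lay within the DMSO range, and the call held in 2 of 8 fits that left out a library (log2 fold change 0.29 ± 0.10, edgeR adjusted p = 0.0476). In contrast, robo3 had 223, 249, 249 and 247 CPM in DMSO and 174, 183, 168 and 166 CPM in TP-0903, without overlap (log2 fold change -0.49 ± 0.07, edgeR adjusted p = 9.8e-05). Robo4, found on blood vessels, fell from 103, 126, 122 and 136 CPM to 77.05, 94.8, 86.5 and 67.5 CPM, likewise without overlap (log2 fold change -0.58 ± 0.11, edgeR adjusted p = 0.00115).

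Markers of several tissues moved beside these genes. Of 8 neuronal markers listed, 7 were tested at 8 h, of which 5 rose and 0 fell, and their summed level was 536 to 625 CPM in DMSO and 712 to 789 CPM in TP-0903. Of 5 endothelial markers, 4 fell and 0 rose, with sums of 218 to 247 CPM in DMSO and 155 to 172 CPM in TP-0903. No marker of either list was at 0 in every library. The part of neuron number in the values of robo2, sema5a or plxna4, and that of vessel cells in robo4 and efnb2a, was not tested. Of 6 neural crest markers, 4 fell and 0 rose (334 to 357 CPM in DMSO and 261 to 272 CPM in TP-0903). The part of the crest in sema3d and sema3fb was likewise not tested. Of 3 epidermal markers 3 fell, and of 7 somite and muscle markers tested 2 rose and 3 fell. Over all genes tested at 8 h, 15.4% were higher and 13.5% lower. With the length trend removed, 5 neuronal markers were higher and 0 lower, and 5 endothelial, 3 crest and 3 epidermal markers were lower. Of the somite and muscle markers, 3 were then higher and 3 lower, beside 13.7% and 13.8% of all genes.

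Slits are the ligands of the Robo receptors. Of the 4 Slits, 0 were called by edgeR, and 1, slit2, had an unadjusted p under 0.05. The midline repellent slit2 had 109.9, 98.2, 103 and 103 CPM in DMSO and 86.4, 86.1, 90.9 and 97.7 CPM in TP-0903. All TP-0903 libraries lay just below the DMSO libraries (edgeR adjusted p = 0.0518, DESeq2 adjusted p = 0.0491). Slit2 was called lower when the length trend was removed. Slit3 had 155 to 167 CPM in DMSO and 152 to 165 CPM in TP-0903, slit1a had 161 to 215 and 175 to 209 CPM, and slit1b had 13.7 to 16.04 and 14.97 to 19.04 CPM. Of 6 markers of floor plate and notochord, the midline tissues that make Slits and netrins, 1 had an unadjusted p under 0.05 at 8 h, and the lowest edgeR adjusted p was 0.0807. When the length trend was removed, 1 of these 6 markers was called lower and 0 higher.

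Of 7 netrin and Unc5 genes tested, 1 was called, beside 28.9% of all genes. Ntn1a, the floor plate attractant, fell from 149, 159, 146 and 151 CPM to 122, 131, 134 and 139 CPM. The groups did not overlap, but the step was small (log2 fold change -0.20 ± 0.07, edgeR adjusted p = 0.0357), and it was called in 4 of 8 fits that left out a library. Ntn1b overlapped, at 16.1 to 17.9 CPM in DMSO and 17.4 to 23.5 CPM in TP-0903. The netrin receptor unc5b overlapped too, at 140.3 to 162 CPM and 133 to 146 CPM, and was called lower when the length trend was removed. Unc5a and unc5db were near 1 CPM and not called, and unc5da was too low to be tested. Unc50 had 6.84 to 10.6 CPM in DMSO and 5.29 to 6.88 CPM in TP-0903 and was not called (edgeR adjusted p = 0.0605).

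**Figure D3:**
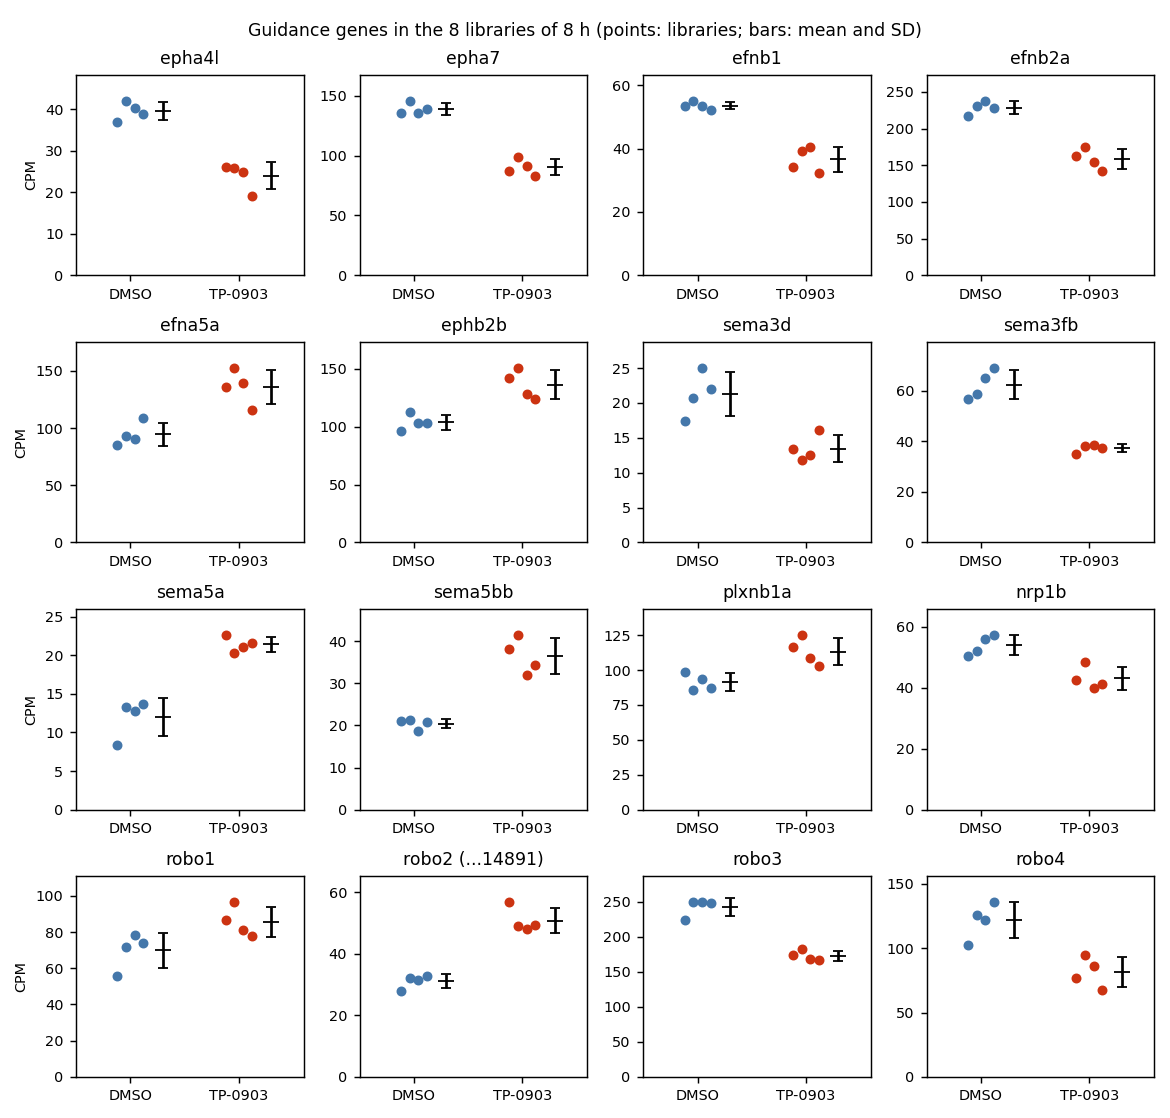
CPM of 16 guidance genes in the 4 DMSO and 4 TP-0903 libraries of 8 h, on axes that start at 0, with the mean and SD beside the points. The treatments are apart for 15 of the genes, and for robo1 1 TP-0903 library lies within the DMSO range.

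For 19 of 79 members, the change under TP-0903 was not the same at 8 h as at 4 h, tested as a treatment by time term over the 16 libraries, beside 14.2% of all genes. For 15 the effect was higher at 8 h than at 4 h (6.43% of all genes), and for 4 it was lower (7.74%). DESeq2 called 20 members, beside 15.2% of all genes. Over all genes, longer genes had higher differences (rho 0.34, across genes), while among the members themselves rho was 0.05. Of the 3409 genes at least as long as the median member, 16.6% were higher and 3.37% lower. With the length trend removed, an alternative added after the data were seen, 18 members were called, 8 higher and 10 lower, beside 4.57% and 6.67% of all genes. All 4 lower calls and 8 of the higher calls were kept (efna2, efna5b, epha4b, plxna4, robo1, both robo2 genes and sema5a), while those of efna5a, efnb3a, ephb2b, sema5ba, sema5bb, sema6e and sema7a were lost. The part of gene length itself was not tested. The largest upward differences among the called members were in sema7a (1.18 ± 0.38 on the log2 scale, edgeR adjusted p = 0.0466), robo2 ENSDARG00000078366 (1.14 ± 0.28, edgeR adjusted p = 0.014) and sema5a (1.04 ± 0.26, edgeR adjusted p = 0.0131). At 4 h sema5a had 4.76, 7.52, 3.84 and 5.98 CPM in DMSO and 4.72, 4.25, 4.41 and 5.405 CPM in TP-0903, groups that overlapped, whereas at 8 h they were apart.

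Plxna4 reversed its order between the times: the TP-0903 libraries lay below DMSO at 4 h and 3 of the 4 lay above all DMSO libraries at 8 h, as given above (0.98 ± 0.19, edgeR adjusted p = 0.00294). Efna2 did the same, with 20.7, 21.7, 24.04 and 24.5 CPM in DMSO and 15.6, 15.4, 19.1 and 18.2 CPM in TP-0903 at 4 h, all below, and all above at 8 h, although efna2 was called at neither time alone (0.68 ± 0.13, edgeR adjusted p = 0.00309). The effect on epha4b also differed (0.59 ± 0.18, edgeR adjusted p = 0.0316), its 8 h libraries overlapping at 74.2 to 88.8 CPM in DMSO and 84.2 to 106 CPM in TP-0903. In the downward direction stood sema3h (-1.42 ± 0.31, edgeR adjusted p = 0.00635), sema3fb (-0.51 ± 0.14, edgeR adjusted p = 0.0217), robo3 (-0.49 ± 0.12, edgeR adjusted p = 0.00964) and nrp1b (-0.44 ± 0.13, edgeR adjusted p = 0.0375). Robo3 had 158 to 188 CPM in DMSO and 154 to 189.8 CPM in TP-0903 at 4 h. Its level in DMSO was higher at 8 h than at 4 h, and the TP-0903 libraries of 8 h stayed in the 4 h range, in CPM scaled within each time.

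Of the 19, 10 were called in every fit that left out a library (efna2, efna5b, plxna4, both robo2 genes, robo3, sema3fb, sema3h, sema5a and sema5ba). Without TP-0903 8 h replicate 1 or 2, 11 members were called. The same test between 1 h and 4 h called 0 of 79 members in edgeR, beside 0% of all genes, and 0 in DESeq2, beside 0.043%. At an unadjusted p under 0.05 it took 1 member, efnb1, beside 2.11% of all genes.

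**Figure D4:**
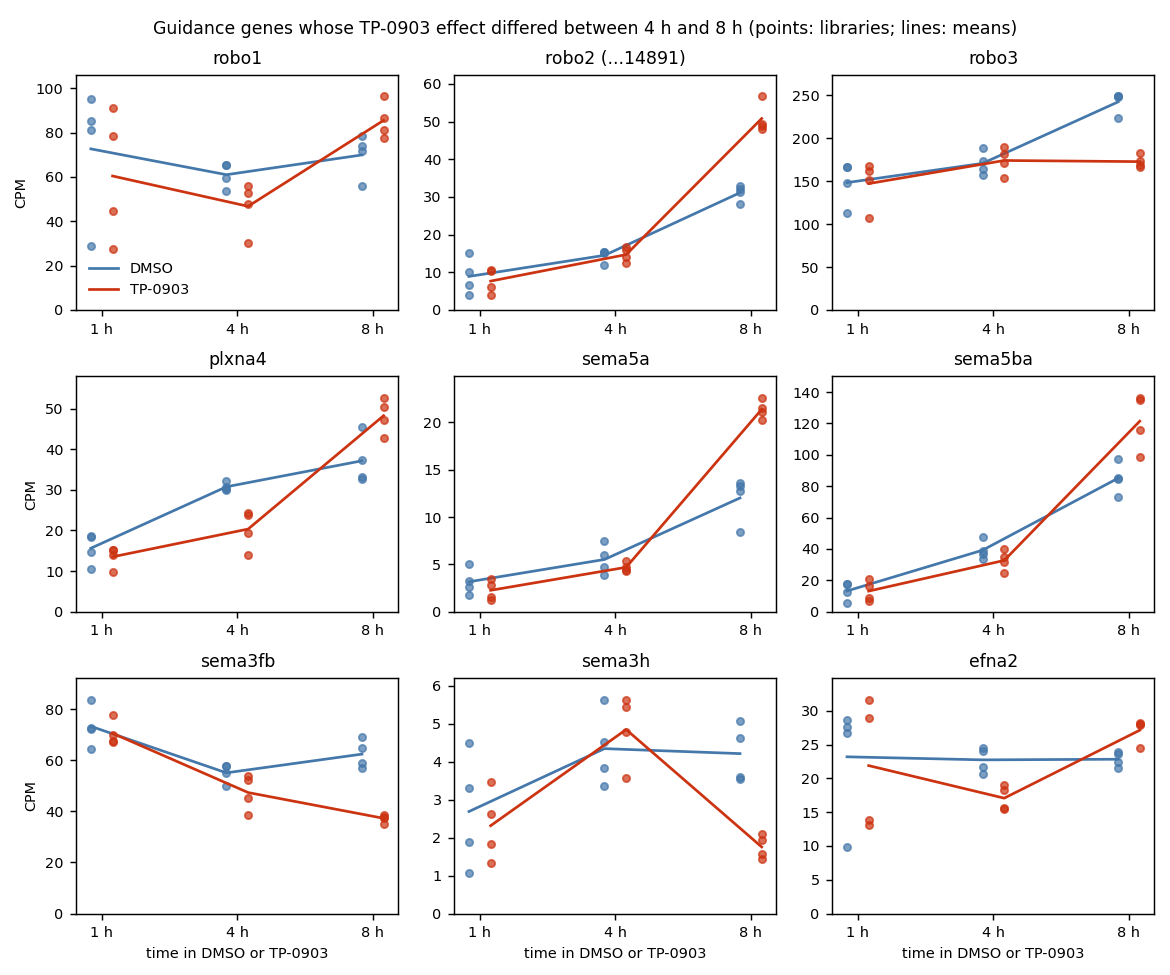
CPM of 9 guidance genes in every library after 1 h, 4 h and 8 h in DMSO (blue) or TP-0903 (red), with lines through the group means. The treatments overlap at 1 h in all 9 genes, and the means part at 8 h, upward in robo1, robo2, plxna4, sema5a, sema5ba and efna2 and downward in robo3, sema3fb and sema3h.

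Genes that act with the guidance receptors were looked at from a list of 65 names of effectors and partners, of which 48 were tested at 8 h. There 18 rose, 6 fell and 24 were not called in edgeR, beside 15.4% of all genes higher and 13.5% lower, and the median log2 fold change was 0.26. Among genes at least as long as the median member 29.5% were higher and 9.05% lower, as given above. With the length trend removed 14 were higher and 7 lower, with a median of 0.21, and all genes named here kept their calls. The MICAL oxidases, which act downstream of plexins on actin, included mical3a (mean 90.7 CPM in DMSO and 161 CPM in TP-0903, log2 fold change 0.82) and mical2b (25.6 and 42.2 CPM, 0.71). The L1 adhesion molecule gene nadl1.2 had 14.3 CPM in DMSO and 31.1 CPM in TP-0903 (1.12), and the collapsin response gene dpysl3 had 114 and 167 CPM (0.55). Among those that fell were rnd2, a small GTPase that binds plexins in mammals (7.17 and 3.84 CPM, -0.90), and the actin-binding ablim1b (92.2 and 62.8 CPM, -0.55). At 1 h 0 of 37 tested passed in edgeR (0 at an unadjusted p under 0.05), and at 4 h 0 of 41 did (3 at an unadjusted p under 0.05).

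Across all 24 libraries, the members whose log2 CPM ran most like that of epha4a were efnb2a (Pearson's r 0.90), unc5b (0.89), plxnb1b (0.87), ephb3a (0.86) and nrp2b (0.84). These are descriptions over libraries that share stage, treatment, table and depth, and no test was made. Of these 5, efnb2a alone was called at 8 h, while ephb3a and nrp2b fell between 1 h and 4 h of DMSO, as did epha4a (-0.39 ± 0.12, edgeR adjusted p = 0.0415, called in 1 of 8 fits that left out a library).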

How the data were processed

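RNA of 35 pooled zebrafish embryos per library was depleted of ribosomal RNA and sequenced by the authors with a stranded total RNA kit as single reads. Per the labels, reads were aligned with Novoalign (2.08.03) to zv9 and compared with DESeq2 (1.4.5), and whether counting used strand is not given in the sources used here. The deposited tables hold the authors' counts per gene, not normalized, and FPKM values from the same reads, with 1 table for each of 1 h, 4 h and 8 h. The authors' 6 columns of log2 fold changes and FDR scores in the deposited tables hold their own comparisons and were not used.

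Counts were tested with edgeR 4.0.16 (R 4.3.3) by quasi-likelihood F tests on TMM-scaled libraries after filterByExpr, over all genes, with Benjamini-Hochberg adjustment and a threshold of 0.05. Comparisons were two-sided: TP-0903 against DMSO within each time, treatment by time, and successive DMSO stages. CPM shown for single libraries were scaled by TMM within each time. The tests between times scaled their libraries together, so CPM of different times are not strictly on the scale of those tests. DESeq2 1.42.0, limma voom (limma 3.58.1), other size factors, filters, a replicate block, 1 fit over 24 libraries, left-out libraries and the length trend were alternatives, and the edgeR procedure was tested on simulated data with 200 planted genes. No pair of replicates agreed within sampling noise (lowest chi-square per gene 1.66). The unit of depth was 3879310 to 10582470 counts per library, and a small number of reads limits precision for members near 1 CPM.

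Members and lists were chosen with earlier results of these data known. Genes were named by rule: called members at 1 h or 4 h, the 3 highest and 3 lowest called members of each of 7 families at 8 h with at least 1 CPM in a group, the 3 extremes of the time and stage tests, 31 members with known roles in boundaries, crest, midline or vessels (28 in the tables), and the 5 most like epha4a. Other members were named after their values were seen. No sequences or coordinates are given, since no genome of the zv9 build was used here.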

Additional observations from a re-analysis of the deposited data

Results flagged for a closer look

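Of 104 groups of 4 libraries looked at, those of 4 h and 8 h for the members that the 8 h and time tests led the text to name, 7 held a library far from the other 3, where chance gives about 1 in 20 groups, or 5.2. The gap of that library to its nearest neighbour is given as a share of the group's range. At 8 h, TP-0903 replicate 2 was low for efna3a (1.22 CPM, the others 2.04 to 2.08 CPM, share 0.956), and TP-0903 replicate 1 was high for robo2 ENSDARG00000014891 (56.8 CPM, the others 48.1 to 49.4 CPM, share 0.851). DMSO replicate 1 of 8 h was low for robo3 (223 CPM, the others 247 to 249 CPM, share 0.932) and for sema5a (8.42 CPM, the others 12.8 to 13.6 CPM, share 0.837). At 4 h, DMSO replicate 2 was high for nrp1b (40.3 CPM, the others 35.1 to 35.8 CPM, share 0.872), TP-0903 replicate 2 was low for plxnb1a (62.5 CPM, the others 79.1 to 82.3 CPM, share 0.841), and DMSO replicate 4 was low for robo2 ENSDARG00000014891 (11.95 CPM, the others 15.2 to 15.4 CPM, share 0.920).

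The TP-0903 effect at 8 h minus that at 4 h passed its own test in edgeR for 19 members, in log2 units. It was below 0 for sema3h (-1.42), sema3fb (-0.51), robo3 (-0.49) and nrp1b (-0.44). It was above 0 for efnb3a (0.46), efna5a (0.50), ephb2b (0.52), sema6e (0.54), sema5bb (0.55), epha4b (0.59), efna2 (0.68), robo1 (0.69), robo2 ENSDARG00000014891 (0.71), sema5ba (0.79), plxna4 (0.98), efna5b (0.99), sema5a (1.04), robo2 ENSDARG00000078366 (1.14) and sema7a (1.18). With the length trend removed, 8 of the 15 above 0 and all 4 below were called. The cause of these differences was not tested.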

How the results depend on the processing

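Each called member kept its direction under every alternative in which it could be fitted. At 4 h, DESeq2 called 1 member where edgeR called 0. At 8 h, 1 fit over all 24 libraries called 16 of the 32 called members that could enter it, and no others, and an adjusted threshold of 0.01 left 22. The other normalizations, tests and filters at 8 h called 30 to 34 members. Leaving out 1 library at a time gave 11 to 21 members in the 8 h against 4 h test in place of 19, with 11 without TP-0903 8 h replicate 1 or 2, and 15 to 43 in the DMSO 4 h against 1 h test in place of 24, with 43 without DMSO 1 h replicate 4 (all 24 among them) and 15 without DMSO 4 h replicate 4. The cause was not tested. For single called members at 8 h, 457 of the values under alternatives kept their side of the threshold and 85 did not, and in the 8 h against 4 h test these were 362 and 75.

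Deviations of same-numbered libraries correlated at -0.72 to 0.59 at 1 h and -0.076 to 0.054 at 8 h. At 4 h all were positive, at 0.077 to 0.43. Along the first component of the spread within treatments, DMSO replicates 1 to 4 of 4 h stood at -16.8, -9.45, 15.5 and 10.8. TP-0903 replicates 1 to 4 stood at -13.1, -33.9, 26.1 and 20.8, so replicates 1 and 2 lay opposite 3 and 4 in both treatments. Whether same-numbered libraries of 4 h were paired is not settled, and the main 4 h test and overlap counts did not pair them. With the replicate number as a block, 0 members were called at 1 h and 4 h, 29 at 8 h, 18 in the 8 h against 4 h test, 0 in the 4 h against 1 h test, 17 between DMSO 1 h and 4 h and 46 between DMSO 4 h and 8 h, and all genes called at 4 h went from 118 to 223. Gene models and stage cannot be told apart between the 4 h and 8 h tables, and depth limits members near 1 CPM.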
